A study of Homo sapiens with 6 samples.

Results

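Cadherins and protocadherins are cell-surface proteins that hold neighbouring cells together through calcium-dependent extracellular repeats. The genes described here were all symbols of the deposited gene table that read CDH followed by a number or start with PCDH, without a hyphen and without symbols ending in Y. The rule found 92 of 26372 genes, made up of 23 CDH genes, 12 single protocadherin genes, and 57 genes of the 3 protocadherin clusters on chromosome 5 (15 PCDHA, 19 PCDHB and 23 PCDHG, pseudogenes included). The rule used names only and no measured value.

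Classical cadherins bind a like cadherin on the next cell and are tied to the actin skeleton by catenins. N-cadherin (CDH2) is known as the main classical cadherin of neural and mesenchymal cells, and E-cadherin (CDH1) as that of epithelia. In the PCDHA and PCDHG clusters each variable exon has its own promoter and is spliced to constant exons that the whole cluster shares, and neurons are known to choose a subset of promoters per cell, which gives each a surface identity. PCDHB genes are single exons with no shared constant part.

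The libraries were made from poly(A) RNA of SH-SY5Y, a human neuroblastoma line. In 3 libraries the cells carried a lentiviral short hairpin RNA against TDP-43 (titles shT2), and in 3 a control hairpin (titles shNC3). TDP-43, encoded by TARDBP, is an RNA-binding protein that regulates splicing. The stable cells of both arms had been selected with puromycin at 2 μg/mL for 2 weeks and kept at 1 μg/mL. The labels name a single line per arm without saying whether it is a clone. Whether a group's 3 libraries stem from separate cultures is not stated in the labels. The p-values below therefore rest on a library-to-library spread that may be technical. TARDBP stood at 21.9, 20.7 and 20.98 FPKM in the knockdown, against 50.3, 50.3 and 47.7 FPKM in the control.

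FPKM, a fragment count divided by transcript length and library size, does not give read numbers. Steps between low values put the relative depth of the knockdown libraries at 52.5% to 94.7% and that of the controls at 84.6% to 100% of the deepest library. Levels of cell state markers also differed between the arms. All 10 mesenchymal markers fell, with summed levels of 443 to 456 FPKM in the knockdown and 2263 to 2309 FPKM in the control, and ANXA1 and CAV1 were listed at 0 in every knockdown library. Of 9 tested noradrenergic neuroblast markers 8 rose and 1, DBH, fell (summed 951 to 1057 FPKM in the knockdown, 500.4 to 513 FPKM in the control), while TH was listed at 0 throughout. An exact 0 in this table can be a failed estimate. Among all genes tested as described below, 30.5% were called higher and 35.9% lower. The part of these markers in the results on cadherins was not tested.

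Values were compared as log2(FPKM + 1) with limma over the 13434 genes that averaged at least 1 FPKM, and a gene was called at a Benjamini-Hochberg adjusted p under 0.05. Of the 92 genes 51 were tested, 17 were called higher and 16 lower in the knockdown, and 18 were not called. Across all tested genes 30.5% were called higher and 35.9% lower (66.3% either way), so the family as a whole was called about as often as the rest of the table. In 20 of the 51 tested members every knockdown library lay above every control library, in 22 every one lay below, and in 9 the groups overlapped. Among all tested genes 32.5% lay wholly above and 38.2% wholly below. In 6 tested members (PCDH1, PCDHA2, PCDHB16, PCDHGA5, PCDHGA6 and PCDHGB3) only 1 group averaged 1 FPKM or more, so they entered the test through that group, which favours a difference. Its median log2 difference was -0.03, beside -0.02 for all tested genes. Of the 41 untested genes 14 had a mean under 0.1 FPKM, and CDH5, CDH9 and PCDH11X were listed at 0 in every library. When each column was rescaled to the same sum, the all-gene median became -0.82, and 4 members were called higher and 38 lower. In that scaling 6 small RNAs weigh heavily, making up between 63.8% and 82.0% of a column, and directions that turn under it are named below.

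**Figure D1:**
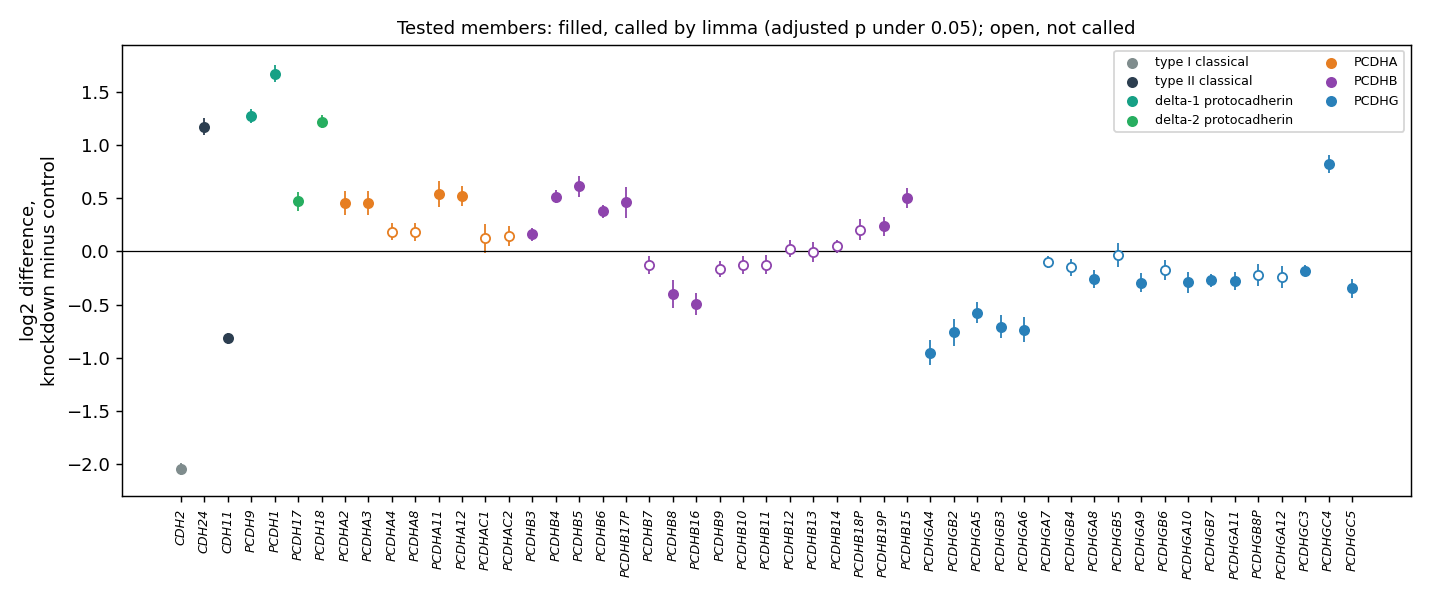
Log2 difference (knockdown minus control, log2(FPKM + 1) scale) of the 51 tested genes, in the order of their start positions within each class, with the limma standard error as bars. CDH2 lies lowest at -2.05 and PCDH1 highest at 1.67, the PCDHA points lie above 0, and all PCDHG points but PCDHGC4 lie below 0, while with columns rescaled to equal sums all tested PCDHA points but PCDHA11 fall below 0.

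N-cadherin was the most abundant member in either group and fell to 0.238 times its control level. CDH2 (GRCh38, chr18:27932879-28177130) gave 50.8, 44.1 and 51.0 FPKM in the knockdown, against 207, 204 and 201 FPKM in the control. Every knockdown library lay far below every control library. CDH2 averaged 48.7 ± 3.95 FPKM in the knockdown and 204 ± 2.68 FPKM in the control (SD, n = 3 each), and the log2 difference was -2.05 (standard error 0.058, limma adjusted p = 1.01e-08). CDH2 also marks mesenchymal cells, and in bulk RNA fewer cells of a type and less RNA per cell cannot be told apart. The other type I classical cadherins were near the floor of the table. E-cadherin, CDH1, was listed at 0.0187 FPKM in knockdown library 1, at 0.0135 FPKM in control library 2 and at 0 in the other libraries, and no difference was detectable at this depth. P-cadherin (CDH3), R-cadherin (CDH4) and M-cadherin (CDH15) stayed at or below 0.188 FPKM in every library and were not tested.

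Among type II classical cadherins, which are a separate adhesive branch of the family, CDH11 fell and CDH24 rose. CDH11 (chr16:64943753-65123744), known from mesenchyme and bone, stood at 17.5, 16.9 and 18.5 FPKM in the knockdown, against 31.6, 32.6 and 31.4 FPKM in the control (log2 difference -0.82, standard error 0.049, limma adjusted p = 1.14e-06). CDH24 (chr14:23047067-23057520) stood at 10.8, 13.0 and 10.9 FPKM in the knockdown, against 4.57, 4.37 and 4.79 FPKM in the control (log2 difference 1.17, standard error 0.080, limma adjusted p = 2.58e-06). Neither pair of groups overlapped. Within a library, CDH24 stood at 0.213, 0.295 and 0.214 times the CDH2 level in the knockdown. In the control it stood at 0.0221, 0.0214 and 0.0238 times that level. Scaling each library by a single factor cannot change this comparison of per-length levels, though quantile normalization can. CDH2 stood at 2.76 ± 0.152 times the CDH11 level in the knockdown and at 6.41 ± 0.140 times in the control (SD, n = 3 each), so the larger fall was that of CDH2.

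The remaining type II genes lay under the filter. CDH18, expressed in the nervous system, stood at 0.564, 0.333 and 0.445 FPKM in the knockdown, against 0.818, 0.837 and 1.52 FPKM in the control. CDH8, a cadherin of neural circuits, stood at 0.290, 0.194 and 0.281 FPKM in the knockdown, against 0.530, 0.749 and 0.675 FPKM in the control. CDH12 stood at 0.563, 0.557 and 0.600 FPKM in the knockdown, against 0.290, 0.272 and 0.224 FPKM in the control. In each of these 3 the groups lay apart, CDH12 being the one with the higher knockdown values. Endothelial CDH5 and CDH9 were listed at 0 throughout, and CDH6, CDH7, CDH10, CDH19, CDH20 and CDH22 stayed at or below 0.380 FPKM in every library.

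T-cadherin, CDH13 (chr16:82626969-83800640), which is held in the membrane by a lipid anchor and lacks the catenin-binding tail, was listed at 0 in all 3 knockdown libraries, whereas the control libraries gave 0.547, 0.815 and 0.849 FPKM. An exact 0 in this table can be a failed estimate, so no fold is given. CDH23, the tip-link cadherin of hair cells, stood at 0.451, 1.21 and 0.417 FPKM in the knockdown, against 0.474, 0.623 and 0.528 FPKM in the control, with knockdown library 2 standing apart and the groups overlapping. CDH16, CDH17 and CDH26 stayed at or below 0.199 FPKM in every library.

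**Figure D2:**
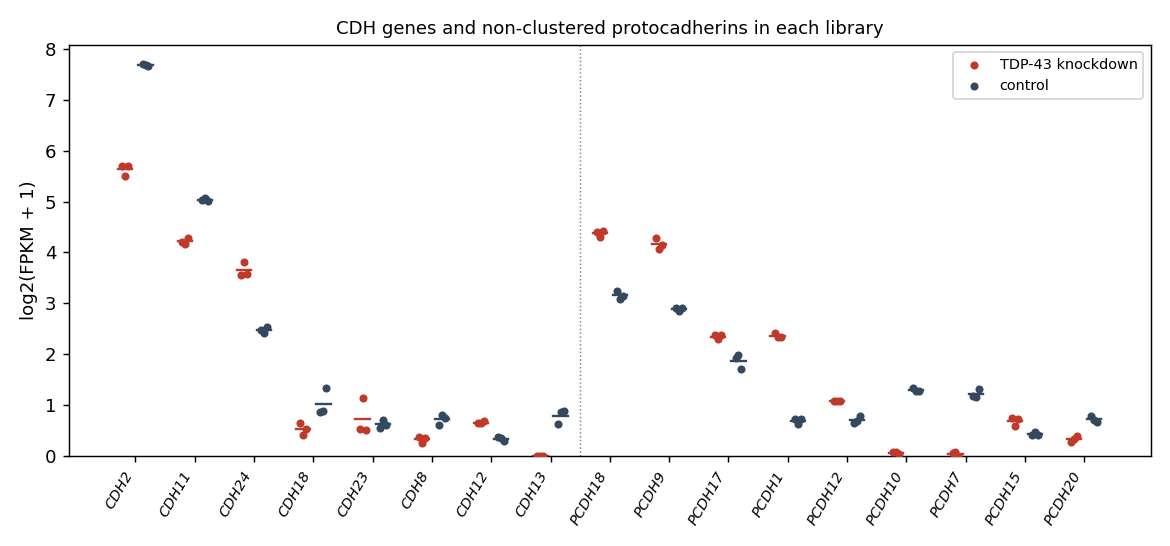
Level in each library, as log2(FPKM + 1), of CDH genes (left of the dotted line) and single protocadherin genes (right) with a mean of 0.5 FPKM or more in either group; points are libraries and lines are group means, with the knockdown left of the control. CDH2 and CDH11 lie lower in the knockdown, CDH24, PCDH18, PCDH9 and PCDH1 higher, and PCDH10 and PCDH7 near 0 in the knockdown.

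The single protocadherins differed in both directions. These genes, of the delta-1 and delta-2 groups for the most part, encode weakly adhesive receptors of the developing nervous system that signal through their cytoplasmic tails. On the deposited scale the 4 that were tested were called higher, beside 30.5% of all tested genes. Of those too low to be tested, PCDH7, PCDH8, PCDH10 and PCDH20 had lower values in every knockdown library, and PCDH12 and PCDH15 higher values.

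Of the delta-1 group, PCDH1 (chr5:141853090-141878410) stood at 4.37, 4.04 and 4.05 FPKM in the knockdown, against 0.650, 0.556 and 0.648 FPKM in the control. Its means of 4.15 ± 0.185 and 0.618 ± 0.0538 FPKM (SD, n = 3 each) differed 6.72-fold, and only the knockdown mean reached the minimum for testing (log2 difference 1.67, standard error 0.080, limma adjusted p = 2.8e-07). PCDH9 (chr13:66302834-67230336) stood at 18.4, 15.8 and 16.8 FPKM in the knockdown, against 6.56, 6.25 and 6.54 FPKM in the control (log2 difference 1.27, limma adjusted p = 4.32e-07). PCDH9 overlaps antisense genes, and whether strand was used in counting is not given in the sources used here. PCDH7 (chr4:30720369-31146800) lay apart in the other direction, at 0.0388, 0.0521 and 0 FPKM in the knockdown, against 1.25, 1.24 and 1.50 FPKM in the control.

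Of the delta-2 group, PCDH18 (chr4:137518918-137532494) stood at 20.0, 18.8 and 20.5 FPKM in the knockdown, against 8.48, 7.46 and 7.85 FPKM in the control (log2 difference 1.22, limma adjusted p = 4.14e-07). PCDH17, known from axons and synapses, stood at 4.18, 3.90 and 4.17 FPKM in the knockdown, against 2.80, 2.94 and 2.27 FPKM in the control (log2 difference 0.47, limma adjusted p = 0.0015), but with equal column sums its estimate was negative (-0.22). PCDH10 (chr4:133149294-133208606), which guides axons in mice, stood at 0.0589, 0.0526 and 0.0291 FPKM in the knockdown, against 1.53, 1.42 and 1.42 FPKM in the control. PCDH8 stood at 0.0247, 0.0329 and 0.0546 FPKM in the knockdown, against 0.378, 0.536 and 0.569 FPKM in the control. PCDH18 and PCDH10, both on chromosome 4, had opposite directions, and in each of these 4 genes the groups lay apart.

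Of the other single genes, PCDH12, known from endothelium, stood at 1.11 FPKM in each knockdown library, against 0.563, 0.606 and 0.726 FPKM in the control. Summed endothelial markers stood at 7.85 to 8.70 FPKM in the knockdown and at 8.63 to 10.4 FPKM in the control, and CDH5 was at 0. EGFL7 made up most of that sum, at 6.83 FPKM in the knockdown and 8.35 FPKM in the control. Untested ESAM (1.01 and 0.584 FPKM) and CLDN5 (0.348 and 0.124 FPKM) lay wholly higher in the knockdown. Untested KDR (0.09965 and 0.175 FPKM) and VWF (0.0213 and 0.132 FPKM) lay wholly lower in the knockdown. Untested TIE1 was listed at 0 in every knockdown library, which can be a failed estimate, and averaged 0.0961 FPKM in the control. PCDH15, a partner of CDH23 in the tip link, stood at 0.6782, 0.5005 and 0.6563 FPKM in the knockdown, against 0.336, 0.380 and 0.329 FPKM in the control. PCDH20 stood at 0.207, 0.252 and 0.306 FPKM in the knockdown, against 0.734, 0.628 and 0.592 FPKM in the control. PCDH19 stayed at or below 0.0201 FPKM. When the minimum mean was set at 0.1 FPKM, CDH18 (log2 difference -0.49), PCDH20 (-0.40) and CDH8 (-0.39) were called lower, and PCDH12 (0.37), CDH12 (0.32) and PCDH15 (0.26) higher. CDH13, PCDH7, PCDH8 and PCDH10 passed that minimum through the control alone, with knockdown levels whose precision is unknown, so their values above are given with no fold and no test. Members tested under that minimum numbered 78, of which 21 were called higher and 25 lower, against 27.6% and 31.5% of all 16933 genes, and these counts include members that passed through 1 group.

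The 3 protocadherin clusters lie next to each other on chromosome 5 in the order PCDHA, PCDHB and PCDHG. In RefSeq, all 15 PCDHA genes end at the same base, 141012347, and 22 of 23 PCDHG genes at 141512975, the exception being the pseudogene PCDHGB8P. This reflects their shared constant exons. Fragments in the constant exons cannot be assigned to 1 variable exon, and PCDHB genes are close paralogues, so single values within a cluster are uncertain where the authors' counting split or shared such fragments. Members of a cluster are therefore not independent measurements.

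Most promoters of these clusters are known to carry a short conserved element whose core reads CGCT. It lies within a site for CTCF, the factor that with cohesin links promoters to distant enhancers. The search below was for the letters CGCT alone, so a match need not be the element. RefSeq promoters of 300 bases (GRCh38.p14) were available for 47 of the 57 cluster genes. On the gene's strand and within 100 bases before the start, 44 of these 47 held CGCT (93.6%), beside 28.7% of all 27305 promoters. On either strand of the whole 300 bases CGCT was in 97.9% of cluster promoters and 69.4% of all promoters. PCDHGB2 and PCDHB8, both called lower, and untested PCDHA9 had no CGCT on the gene's strand within 100 bases before the start. Windows of 40 bases, with CGCT in capitals, are shown for some called genes, since the surrounding letters tell the clusters apart in part:
PCDHA2, higher, chr5:140794775-140794814, plus strand: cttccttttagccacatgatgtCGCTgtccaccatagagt
PCDHA11, higher, chr5:140868877-140868916, plus strand: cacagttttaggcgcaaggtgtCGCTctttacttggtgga
PCDHA12, higher, chr5:140875238-140875277, plus strand: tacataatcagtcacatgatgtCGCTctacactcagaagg
PCDHB4, higher, chr5:141121717-141121756, plus strand: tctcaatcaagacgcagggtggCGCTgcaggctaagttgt
PCDHB15, higher, chr5:141245308-141245347, plus strand: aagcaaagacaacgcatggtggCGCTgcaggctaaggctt
PCDHB16, lower, chr5:141182304-141182343, plus strand: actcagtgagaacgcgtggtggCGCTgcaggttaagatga
PCDHGA4, lower, chr5:141354954-141354993, plus strand: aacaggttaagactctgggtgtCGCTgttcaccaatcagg
PCDHGA5, lower, chr5:141364101-141364140, plus strand: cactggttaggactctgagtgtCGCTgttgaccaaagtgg
PCDHGA6, lower, chr5:141373829-141373868, plus strand: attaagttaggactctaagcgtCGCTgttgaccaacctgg
PCDHGC3, lower, chr5:141475874-141475913, plus strand: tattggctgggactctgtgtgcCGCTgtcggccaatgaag
PCDHGC4, higher, chr5:141484946-141484985, plus strand: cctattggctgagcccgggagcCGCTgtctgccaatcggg

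Longer forms of CGCT, chosen after these windows were seen and searched on both strands of the 300 bases, followed the clusters in part. TGTCGCT was in 10 of 13 PCDHA promoters, 1 of 14 PCDHB and 3 of 20 PCDHG promoters, beside 1.76% of all promoters. TGGCGCT was in 0 of 13 PCDHA, 13 of 14 PCDHB and 3 of 20 PCDHG promoters, beside 4.11% of all. CGCTGTT was in 0 of 13 PCDHA, 1 of 14 PCDHB and 13 of 20 PCDHG promoters, beside 2.29% of all. All 3 forms contain CGCT, and they overlap one another in some promoters, TGTCGCT and CGCTGTT doing so in PCDHGA4 and PCDHGA5. Among the windows shown, PCDHB4 and PCDHB15 (higher) and PCDHB16 (lower) share TGGCGCT. The windows of PCDHGA4, PCDHGA5 and PCDHGA6 (lower) hold CGCTGTT, and those of PCDHGC3 (lower) and PCDHGC4 (higher) do not. Among windows not shown, PCDHGA8, PCDHGA9 and PCDHGA10 (lower), PCDHGA7, PCDHGB4 and PCDHGB5 (not called) and PCDHB3 (higher) hold CGCTGTT. Those of PCDHGB3, PCDHGB7 and PCDHGA11 (lower) and PCDHGB6 (not called) lack it. Whether CGCTGTT goes with the calls was not tested. The full promoters of PCDHA12, called higher, and PCDHGA4, called lower, are given as examples of either cluster (250 bases before and 50 after the start, CGCT in capitals):
PCDHA12, chr5:140875058-140875357, plus strand: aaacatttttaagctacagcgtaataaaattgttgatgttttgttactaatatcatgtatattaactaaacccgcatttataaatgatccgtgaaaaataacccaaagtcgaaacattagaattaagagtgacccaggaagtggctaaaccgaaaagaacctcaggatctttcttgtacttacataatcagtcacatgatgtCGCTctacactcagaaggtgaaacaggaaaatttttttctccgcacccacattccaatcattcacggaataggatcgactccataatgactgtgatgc
PCDHGA4, chr5:141354771-141355070, plus strand: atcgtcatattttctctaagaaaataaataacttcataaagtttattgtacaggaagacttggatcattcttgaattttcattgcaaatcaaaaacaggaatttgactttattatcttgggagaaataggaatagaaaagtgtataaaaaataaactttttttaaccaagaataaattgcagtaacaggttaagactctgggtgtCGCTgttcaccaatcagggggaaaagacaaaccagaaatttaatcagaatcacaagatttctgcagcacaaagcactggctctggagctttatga

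Summed over a cluster, PCDHA was higher and PCDHG lower on the deposited scale. The summed level of the 15 PCDHA genes was 23.9, 24.2 and 25.3 FPKM in the knockdown, against 16.3, 18.9 and 18.4 FPKM in the control. The 19 PCDHB genes summed to 68.3, 69.5 and 70.5 FPKM in the knockdown, against 62.3, 62.9 and 62.0 FPKM in the control. The 23 PCDHG genes summed to 84.6, 83.7 and 85.9 FPKM in the knockdown, against 101.9, 102.01 and 102.5 FPKM in the control. The groups lay apart for each sum. Ratios of these sums within a library do not change when each library is scaled by a single factor. The PCDHA sum was 0.289 ± 0.00639 times the PCDHG sum in the knockdown and 0.175 ± 0.0134 times in the control, and the PCDHB sum 0.819 ± 0.0111 times the PCDHG sum in the knockdown and 0.611 ± 0.00560 times in the control (SD, n = 3 each). No test is given for these sums.

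**Figure D3:**
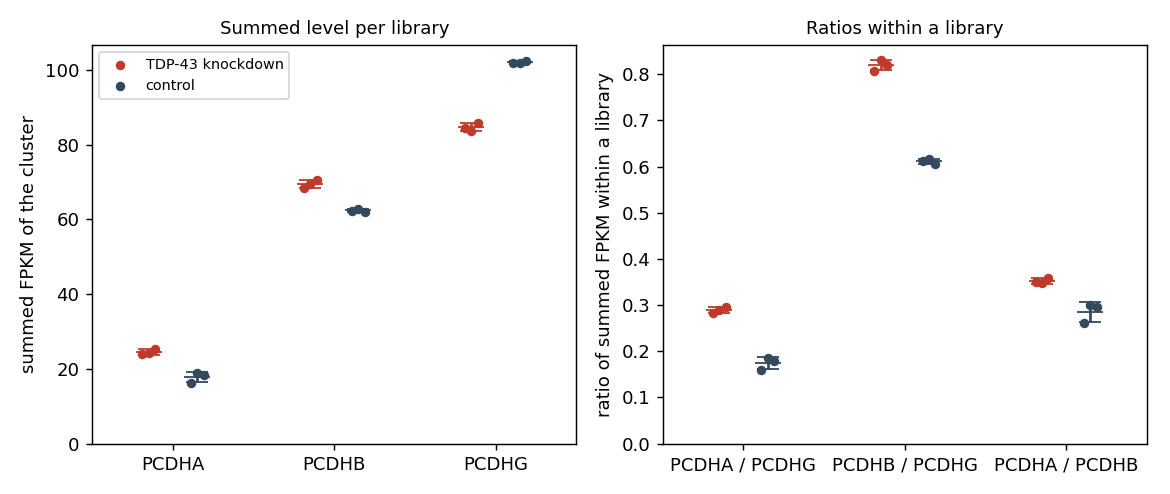
Left, summed FPKM of the PCDHA, PCDHB and PCDHG genes in each library; right, ratios of the sums within a library; points are libraries, bars are the mean ± SD of 3 libraries, with the knockdown left of the control. The PCDHA to PCDHG ratio lies at 0.282 to 0.295 in the knockdown and at 0.160 to 0.185 in the control.

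In the PCDHA cluster the mean of each of the 15 genes was higher in the knockdown on the deposited scale. Of 8 tested genes 4 were called higher and 0 lower (30.5% and 35.9% of all tested genes), with a median log2 difference of 0.32. PCDHA11 stood at 1.85, 1.69 and 2.48 FPKM in the knockdown, against 1.04, 0.902 and 1.25 FPKM in the control (log2 difference 0.54, standard error 0.121, limma adjusted p = 0.00405). PCDHA12 stood at 2.53, 2.50 and 2.69 FPKM in the knockdown, against 1.30, 1.44 and 1.76 FPKM in the control (log2 difference 0.52, standard error 0.093, limma adjusted p = 0.00117). In both the groups did not overlap. PCDHA2, which reached the minimum for testing through the knockdown mean alone, stood at 1.53, 1.64 and 1.84 FPKM in the knockdown. Its control values were 0.697, 0.984 and 1.19 FPKM (0.45, limma adjusted p = 0.00743). PCDHA3 stood at 1.81, 2.19 and 1.53 FPKM in the knockdown, against 0.911, 1.09 and 1.21 FPKM in the control (0.45, limma adjusted p = 0.00648). These groups lay apart too.

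The C-type genes at the end of the cluster, which many neurons are known to express together, were not called. PCDHAC2, the most abundant gene of the cluster, stood at 6.07, 4.82 and 5.38 FPKM in the knockdown, against 4.46, 5.42 and 4.53 FPKM in the control, and PCDHAC1 also overlapped between groups (0.12). PCDHA4 and PCDHA8, with log2 differences of 0.18 each, missed the threshold (limma adjusted p = 0.072 and 0.0933), though their groups lay apart. The 7 untested genes had means of 0.397 to 1.08 FPKM in the knockdown and of 0.332 to 0.688 FPKM in the control. Of these PCDHA5, PCDHA9 and PCDHA13 had groups that lay apart, with higher knockdown values, and PCDHA1, PCDHA6, PCDHA7 and PCDHA10 overlapped. With equal column sums 7 of the 8 tested genes had negative estimates and 4 were called lower. The median of the cluster then stood 0.61 above that of all genes, as against 0.34 on the deposited scale. As log2(FPKM + 1), low genes shift less under rescaling than abundant ones, so the larger distance does not show a larger difference.

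The PCDHB genes moved in both directions. Of 17 tested genes 7 were called higher, 2 lower and 8 were not called, beside 30.5% higher and 35.9% lower among all tested genes, with a median log2 difference of 0.05. With equal column sums 0 were called higher and 14 lower. PCDHB5 stood at 2.37, 2.63 and 2.27 FPKM in the knockdown, against 1.11, 1.14 and 1.48 FPKM in the control (log2 difference 0.61, limma adjusted p = 0.000571). PCDHB4 stood at 7.10, 7.39 and 7.28 FPKM in the knockdown, against 4.81, 4.85 and 4.66 FPKM in the control (log2 difference 0.52, limma adjusted p = 7.18e-05). In both genes every knockdown library lay above every control library. PCDHB15 stood at 3.31, 4.18 and 3.62 FPKM in the knockdown, against 2.51, 2.33 and 2.12 FPKM in the control (log2 difference 0.50, limma adjusted p = 0.0014). PCDHB16 fell, at 0.977, 0.719 and 0.971 FPKM in the knockdown, against 1.69, 1.43 and 1.86 FPKM in the control (log2 difference -0.49, limma adjusted p = 0.00306). Only the control mean of PCDHB16 reached the minimum for testing.

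Some neighbours in the PCDHB cluster shared a call, which was looked for after the values were seen. The 5 successive tested genes PCDHB3, PCDHB4, PCDHB5, PCDHB6 and the pseudogene PCDHB17P were all called higher, with log2 differences of 0.16 to 0.61. PCDHB8 (-0.40) and PCDHB16, which follow after PCDHB7, were both called lower, and PCDHB19P (0.24) and PCDHB15, at the far end, higher. The 8 genes not called had log2 differences of -0.17 to 0.21. PCDHB10 and PCDHB14, at 6.25 ± 0.742 and 7.39 ± 0.342 FPKM in the knockdown and 6.91 ± 0.342 and 7.11 ± 0.227 FPKM in the control (SD, n = 3 each), were among these. PCDHB2, under the filter, stood at 0.2032, 0.4942 and 0.3001 FPKM in the knockdown, against 1.11, 1.11 and 1.01 FPKM in the control, and PCDHB1 was at or below 0.0606 FPKM.

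Several PCDHB calls were thin. Leaving out single libraries ended the call of PCDHB3 (5 of 6 libraries, all but knockdown library 2, adjusted p = 0.0646 to 0.186), PCDHB19P (the same 5, 0.0678 to 0.129), PCDHB17P (knockdown library 1 or control library 2 or 3, 0.0574 to 0.0636) and PCDHB8 (the same 3, 0.0539 to 0.0955). PCDHB9 (-0.17) was called without knockdown library 2 (adjusted p = 0.0394). With columns rescaled to equal sums PCDHB5 alone among the 7 kept a positive estimate, and it was not called.

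In the PCDHG cluster 12 of 19 tested genes were called lower and 1 higher, beside 35.9% and 30.5% of all tested genes, with a median log2 difference of -0.27. With equal column sums 18 were called lower and 0 higher. Over all 23 genes, tested or not, 21 had a lower mean in the knockdown. The largest falls were in 5 successive genes near the start of the cluster, whose knockdown means were 0.353 to 0.458 times the control means. PCDHGA4 stood at 0.696, 1.02 and 1.31 FPKM in the knockdown, against 2.79, 2.75 and 3.03 FPKM in the control (log2 difference -0.95, standard error 0.119, limma adjusted p = 0.000129). PCDHGB2 stood at 1.46, 1.71 and 1.01 FPKM in the knockdown, against 3.52, 2.94 and 2.66 FPKM in the control (-0.76, limma adjusted p = 0.000852). PCDHGA6 stood at 0.620, 0.872 and 0.745 FPKM in the knockdown, against 1.51, 2.28 and 1.96 FPKM in the control (-0.74, limma adjusted p = 0.000659). PCDHGB3 (-0.71) and PCDHGA5 (-0.58) complete the run, and in all 5 the groups lay apart. Of these PCDHGA5, PCDHGA6 and PCDHGB3 reached the minimum for testing through the control alone, while the 4 genes before PCDHGA4 were too low to be tested. The other 7 genes called lower held 0.688 to 0.879 times the control mean, and the 6 not called had log2 differences of -0.24 to -0.03.

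The abundant genes of the cluster changed less. PCDHGC3, a C-type gene and the most abundant protocadherin of the table, stood at 32.7, 31.6 and 33.4 FPKM in the knockdown, against 35.8, 36.4 and 38.9 FPKM in the control (-0.18, limma adjusted p = 0.00965), and it turned positive with quantile normalization (0.06). PCDHGB7 stood at 14.2, 13.8 and 14.5 FPKM in the knockdown, against 18.7, 16.8 and 16.5 FPKM in the control (-0.27, limma adjusted p = 0.0032). PCDHGA7, at 9.57 ± 0.179 FPKM in the knockdown and 10.3 ± 0.599 FPKM in the control (SD, n = 3 each), was not called.

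PCDHGC4 was the exception. This C-type gene, in mice the PCDHG isoform that interneuron survival depends on, stood at 6.45, 5.54 and 5.66 FPKM in the knockdown, against 2.88, 3.15 and 2.62 FPKM in the control (log2 difference 0.82, standard error 0.084, limma adjusted p = 3.5e-05). Its share of the summed PCDHG level was 6.94% ± 0.589 in the knockdown and 2.82% ± 0.264 in the control (SD, n = 3 each). With columns rescaled to equal sums it stayed positive and was not called. Its neighbours PCDHGC3 and PCDHGC5 (-0.35), which share its constant exons, were called lower.

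Weaker PCDHG calls depended on single libraries. PCDHGA10 was lost without knockdown library 1 or control library 1 or 3 (adjusted p = 0.0577 to 0.084), PCDHGA8 without knockdown library 3 or control library 1 or 2 (0.0605 to 0.0859), PCDHGA9 without knockdown library 1 or control library 1 (0.0531 to 0.0723) and PCDHGA11 without knockdown library 3 or control library 2 (0.0526 to 0.0546). PCDHGA12 was called without knockdown library 3 (adjusted p = 0.0262) and PCDHGB8P without knockdown library 1 (0.030). The 4 untested genes had means of 0.313 to 0.703 FPKM in the knockdown and of 0.605 to 0.819 FPKM in the control; PCDHGA2 and PCDHGB1 lay lower in every knockdown library, and PCDHGA1 and PCDHGA3 overlapped.

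**Figure D4:**
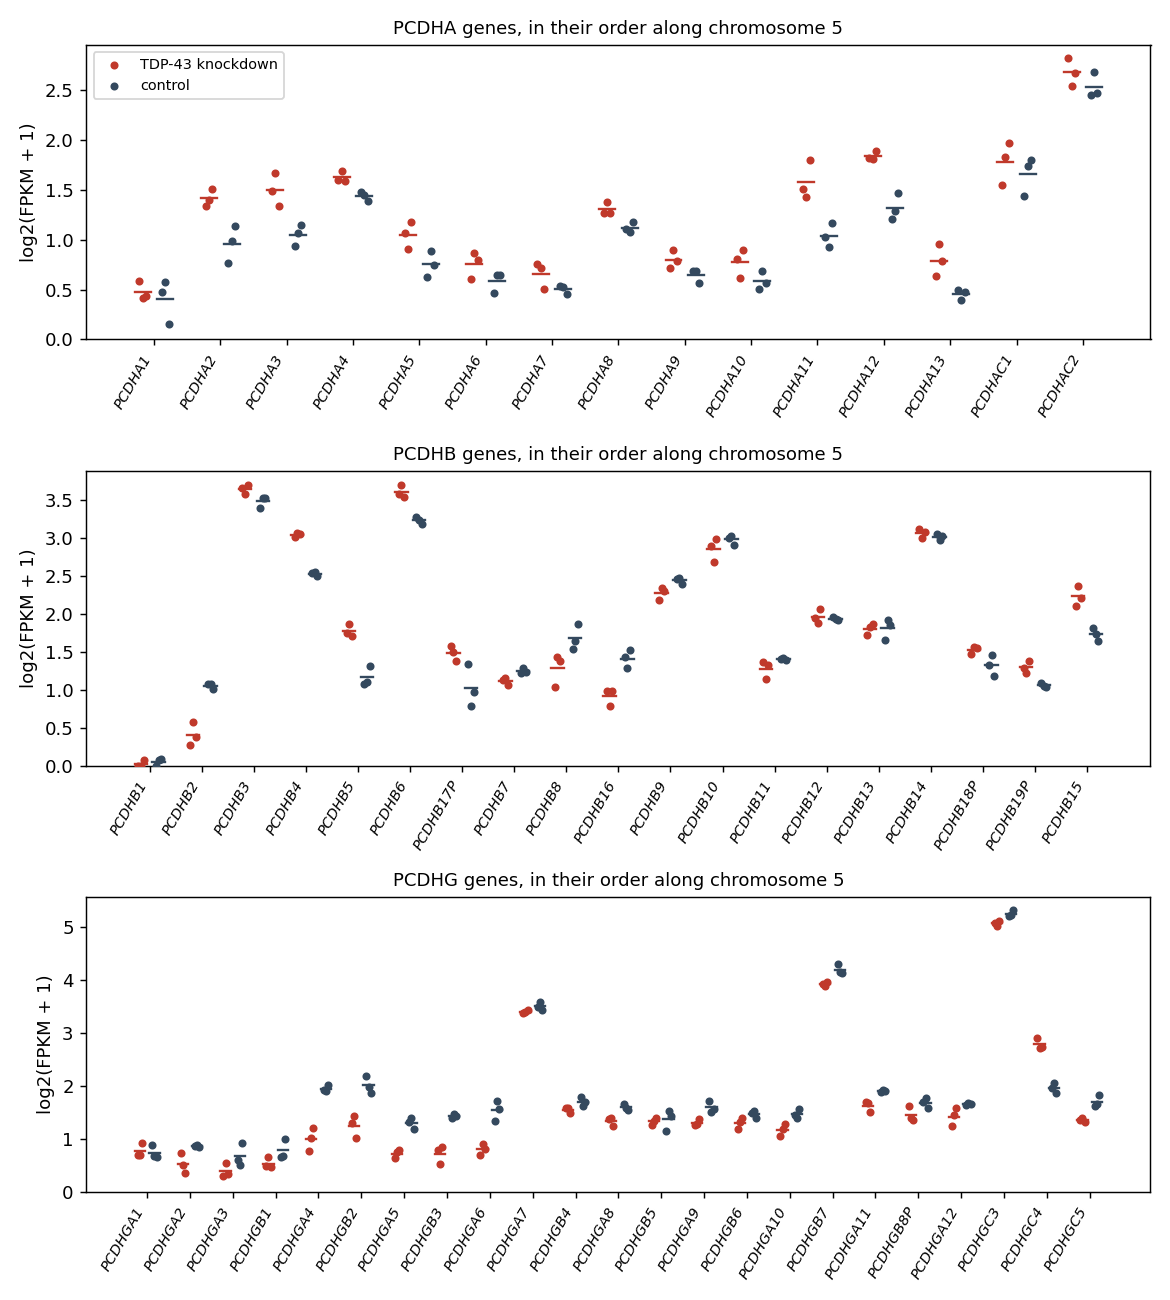
Level in each library, as log2(FPKM + 1), of all 57 cluster genes in their order along chromosome 5; points are libraries and lines are group means, with the knockdown left of the control. PCDHA means lie higher in the knockdown on the deposited scale (7 of the 8 tested turn with columns rescaled to equal sums), PCDHGA4 to PCDHGA6 lie lower, and PCDHGC4 lies higher.

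Genes of the proteins that work with these receptors were called in both directions, as 30.5% (higher) and 35.9% (lower) of all tested genes were, and the counts below are read as no more than descriptions of each list. Of 12 tested catenins and cytoplasmic partners 4 rose and 6 fell (median -0.15). Vinculin (VCL), which strengthens the link to actin, stood at 15.8 ± 0.987 FPKM in the knockdown and 82.9 ± 0.587 FPKM in the control (SD, n = 3 each), a log2 difference of -2.32 (limma adjusted p = 2.36e-09). CTNNA1, the general alpha-catenin, had a log2 difference of -0.82 and CTNNA2, the neuronal one, of 1.56. CTNNA2 stood at 15.2 ± 0.314 FPKM in the knockdown and 4.49 ± 0.0298 FPKM in the control. PKP2, a plakophilin, rose by 0.89. Among 11 tested members of the wider cadherin superfamily 4 rose and 4 fell (median 0.0065), led by the giant cadherin FAT1 at 9.56 ± 0.182 FPKM in the knockdown and 40.2 ± 0.618 FPKM in the control. CLSTN2, a synaptic calsyntenin, rose by 0.94, CELSR1 fell by 0.78, and CELSR2 rose by 0.69, an estimate that was -0.08 with equal column sums.

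Of 10 tested genes of cadherin processing 2 rose and 4 fell (median -0.12). FURIN, a protease that removes the prodomain of classical cadherins, stood at 4.88 ± 0.158 FPKM in the knockdown and 22.8 ± 0.979 FPKM in the control. ADAM10, which sheds the extracellular part of N-cadherin, fell by 0.34, and the gamma-secretase genes APH1B and PSENEN by 0.54 and 0.41. ADAM10 and PSENEN missed the threshold with quantile normalization (adjusted p = 0.0525 and 0.0522). Of 17 tested CTCF, cohesin and silencing factors of the protocadherin clusters 5 rose and 7 fell (median -0.0033). SETDB1, a histone H3 lysine 9 methyltransferase known to act on these clusters in mouse neurons, rose by 0.79, DNMT3A by 0.70 and the cohesin loader gene MAU2 by 0.62. With equal column sums these estimates were -0.09, -0.18 and -0.20. The repressor gene REST fell by 0.60.

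Of 7 repressors of CDH1 transcription 2 rose and 4 fell (median -0.30), with TWIST1 (log2 difference 1.40) and TWIST2 (-1.16) moving apart, TCF4 at -0.43 and ZEB2 at -0.31. Summed epithelial markers stood at 14.3 to 15.0 FPKM in the knockdown and at 98.1 to 105 FPKM in the control, with ESRP1 listed at 0 throughout and 3 of 4 tested genes lower. KRT18 made up most of that sum, at 9.93 FPKM in the knockdown and 89.8 FPKM in the control. Untested EPCAM (0.848 and 0.285 FPKM) and GRHL2 (0.152 and 0.0247 FPKM) lay wholly higher in the knockdown, and untested CLDN7 (0.206 and 0.554 FPKM) wholly lower. Their part in the results on cadherins was not tested.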

How the data were processed

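The authors deposited 1 table of FPKM, a column per library. TopHat2 2.1.0, Cuffdiff 2.2.1 and SAMtools are named in the submitters' processing notes, together with hg38, without saying what each did. The library kit was directional per the labels' protocols. Which annotation was used, and whether strand was, is not given in the sources used here. Groups and replicate numbers came from the sample titles.

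FPKM were tested as log2(FPKM + 1) with limma 3.58.1 in R 4.3.3 (intensity trend, two-sided moderated tests) for the 13434 genes averaging at least 1 FPKM, with Benjamini-Hochberg adjustment over all of them. The log2 scale with this pseudocount understates changes of low genes. The test was checked on simulated data. With 3 libraries against 3, an exact permutation test cannot go below p = 0.1, so none is given per gene. Members, gene lists and classes were chosen with earlier results of these data known. Up to 4 called genes per class and list with the largest change were named by rule, as were CDH1, CDH2 and CDH11, members of 0.5 FPKM or more and members at 0 in 1 group; further members were named after their values were seen. Alternatives were other pseudocounts, minimum levels, scalings, limma settings, a replicate block and leaving out each library. Positions and promoters are from RefSeq (GRCh38.p14), matched by symbol (69 of 92 members had a promoter). For PCDHA3, PCDHA13, PCDHB6, PCDHB11, PCDHB17P, PCDHB18P, PCDHB19P, PCDHGA12, PCDHGB8P and PCDHGC5 no promoter is shown. Tables and plots used Python 3.11.15, pandas 2.3.3, numpy 2.4.6 and matplotlib 3.10.9. The result of 1 further marker list is not reported here.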

Additional observations from a re-analysis of the deposited data

How the results depend on the processing

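Of 881 values of single members under the alternatives, 798 kept their direction and their side of the threshold, 36 lost the call, 21 gained one and 26 turned. With columns rescaled to equal sums, 4 members were called higher and 38 lower (17 and 16 on the deposited scale) and 0 PCDHA genes higher (4 on the deposited scale). Under that scaling log2 differences turned to -0.22 in PCDH17, -0.0796 in PCDHA12, -0.0469 in PCDHA2, -0.0687 in PCDHA3, -0.41 in PCDHA4, -0.33 in PCDHA8, -0.51 in PCDHAC1, -0.61 in PCDHAC2, -0.65 in PCDHB12, -0.75 in PCDHB14, -0.17 in PCDHB15, -0.0576 in PCDHB17P, -0.37 in PCDHB18P, -0.27 in PCDHB19P, -0.67 in PCDHB3, -0.26 in PCDHB4, -0.44 in PCDHB6, -0.0761 in CELSR2, -0.0854 in SETDB1, -0.18 in DNMT3A and -0.20 in MAU2. Equal sums without 6 small RNAs, chosen after seeing the data, gave 16 higher and 18 lower. PCDHB13 turned with median-of-ratios rescaling (0.0158) and quantile normalization (0.0263), and PCDHGC3 with quantile normalization (0.0563).

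With a minimum mean of 5 FPKM, which tests fewer genes, 6 members were called higher and 4 lower, 0 PCDHA genes higher and 2 PCDHG genes lower (12 at 1 FPKM). With a minimum of 0.1 FPKM 25 members were called lower. Leaving out each library gave 14 to 17 members higher, 13 to 17 lower, 4 PCDHA genes higher each time and 9 to 12 PCDHG genes lower. PCDHB12 turned without knockdown library 3 (-0.0255 to 0.0685 over the 6 fits), PCDHB13 without knockdown library 1 or control library 2 or 3 (-0.0815 to 0.0519), and PCDHGB5 without knockdown library 1 or control library 2 (-0.1428 to 0.0456). None of these 3 was called. Deviations of same-numbered libraries from their group means correlated at -0.018, -0.185 and -0.091. These values show no shared deviation but cannot tell whether same-numbered libraries were prepared together. With the replicate block 15 members were higher and 16 lower, PCDHB3 and PCDHB19P losing their calls (adjusted p = 0.0847 and 0.0757). PCDHB3 was also lost without the trend, with a lower or no minimum and with equal sums without the small RNAs. Causes were not tested. Depth is not stated in FPKM, so levels under about 0.1 FPKM carry no known precision.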
